A study of Drosophila melanogaster with 3 samples.

Results

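The 10 genes described here encode core regulators of the fruit fly cell cycle: the cyclins CycA, CycB, CycB3, CycD and CycE, the kinases Cdk1 and Cdk2, the phosphatase gene stg, the inhibitor gene dap and the transcription factor gene E2f1. They were chosen by name and are 10 of the 13968 protein-coding genes of Ensembl release 115 on the arms of dm6. Peaks of CG7839, annotated as Noc1, were measured by chromatin immunoprecipitation and sequencing (ChIP-seq) with an antibody against GFP. The material was whole embryos of mixed sex, aged 0 to 24 h, of a transgenic line that stably expresses CG7839 with GFP at its C-terminus. The labels give 3 biological replicates in 1 group and no other group, so no comparison between conditions was possible. The promoter that drives the fusion is not stated in the labels, and an untagged line was not analysed here. Whole embryos mix many cell types and stages, so a peak does not say which cells carried it.

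The cell cycle turns on kinases that are active only when bound to a cyclin. CycE with Cdk2 starts DNA replication, whereas CycA, CycB and CycB3 act with Cdk1 in mitosis. In the fly embryo the early divisions run on maternal supplies, and the later ones are timed by transcription of stg. CG7839 is related to a yeast nucleolar protein with a part in making the large ribosomal subunit.

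The data are lists of summits, the points of highest signal in each peak. Each replicate has 30000 peaks, the pooled reads also gave 30000, and a list named for the irreproducible discovery rate (IDR) holds 8188. Membership in the IDR list equals a cutoff on pooled signal, since its peaks are the top 8188 of the pooled list. The scale of the deposited signal value is not stated, so peaks were ranked by it within a list, with rank 1 the strongest. The 8188 highest-ranked peaks of a replicate are called its strongest peaks. Read depth is unknown from these files. A summit within 500 bp of any annotated transcript start is called a promoter summit.

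In the IDR list 3 of the 10 genes had a promoter summit: Cdk1, dap and E2f1. This share of 30% (95% Wilson interval 10.8 to 60.3) compares with 22.8% of all protein-coding genes, which lies inside the interval. The pooled list added CycA and stg and gave 5 genes, against 37.6% of protein-coding genes. Among the strongest peaks, replicate 1 gave 5 genes (CycB3, CycE, Cdk1, dap and E2f1), against 22.8% of protein-coding genes (interval of the 10 genes 23.7 to 76.3%). Replicate 2 gave 3 genes (CycB, Cdk1 and E2f1), against 25.1% (interval 10.8 to 60.3%). Replicate 3 gave 6 genes (CycA, CycB3, Cdk1, stg, dap and E2f1), against 26.4% (interval 31.3 to 83.2%). The share of all genes thus lay just below the interval in replicate 1, inside it in replicate 2 and below it in replicate 3. The replicates thus averaged 4.67 ± 1.53 of the 10 genes (SD, n = 3), and only Cdk1 and E2f1 were in all 3, against 17.9% of protein-coding genes. Leaving out replicate 2 raised the number found in every remaining replicate to 4, with dap and CycB3 added, and leaving out replicate 1 or 3 left it at 2. Leaving out a replicate can only keep or raise this number, and the matching share of protein-coding genes is not given here.

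Agreement among replicates depended on how deep into the lists the search went. Of the 8 genes with a promoter summit among the strongest peaks of any replicate, 2 (25%) had it in all 3, against 2505 of 4450 protein-coding genes (56.3%). In the full lists the order was the opposite, with 6 of 8 genes (75%) against 4109 of 7787 (52.8%). Both shares rest on 8 genes and have no interval here, so the change of order is a description and was not tested. CycE missed the first count because its strong place straddled the edge of the 500 bp window. It entered the second through 2 different places, as described below. In the full lists, replicates 1, 2 and 3 gave 7, 7 and 8 of the 10 genes, a mean of 7.33 ± 0.577 (SD, n = 3). The intervals for the 10 genes were 39.7 to 89.2% in replicates 1 and 2 and 49.0 to 94.3% in replicate 3, against 37.8%, 43.5% and 46.4% of protein-coding genes in replicates 1, 2 and 3. All 3 full lists shared 6 genes, CycB, CycE, Cdk1, stg, dap and E2f1 (60%, interval 31.3 to 83.2), against 29.4% of protein-coding genes. The share of all genes was below the interval in the full lists of replicates 1 and 3 and in all 3 together, and inside it in replicate 2. These intervals cover counting error over 10 genes chosen with earlier results known, and no test was made from them. A gene with several starts has more places to hold a promoter summit, which was not adjusted for in any of these shares. E2f1 has 5 starts, CycB and CycE 3 each and stg 2.

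**Figure D1:**
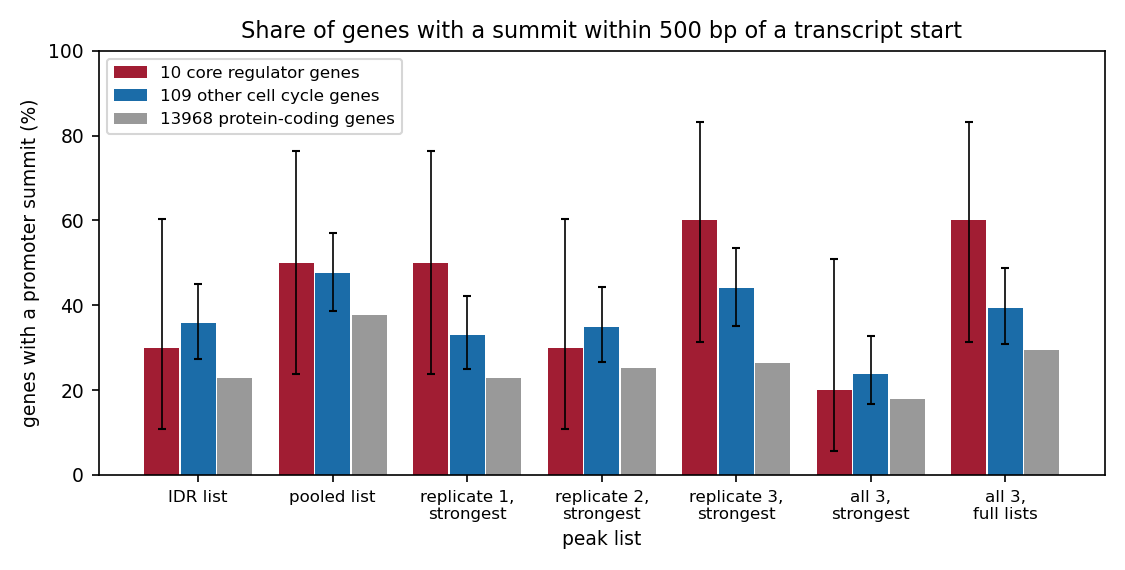
Bars give the percent of genes with a promoter summit in each peak list, for the 10 core regulator genes, 109 other cell cycle genes and 13968 protein-coding genes; error bars are 95% Wilson intervals for the first 2 sets. The core regulator bar is 30% in the IDR list and 20% among the strongest peaks of all 3 replicates, with intervals that reach from 10.8 to 60.3% and from 5.67 to 51.0%.

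**Figure D2:**
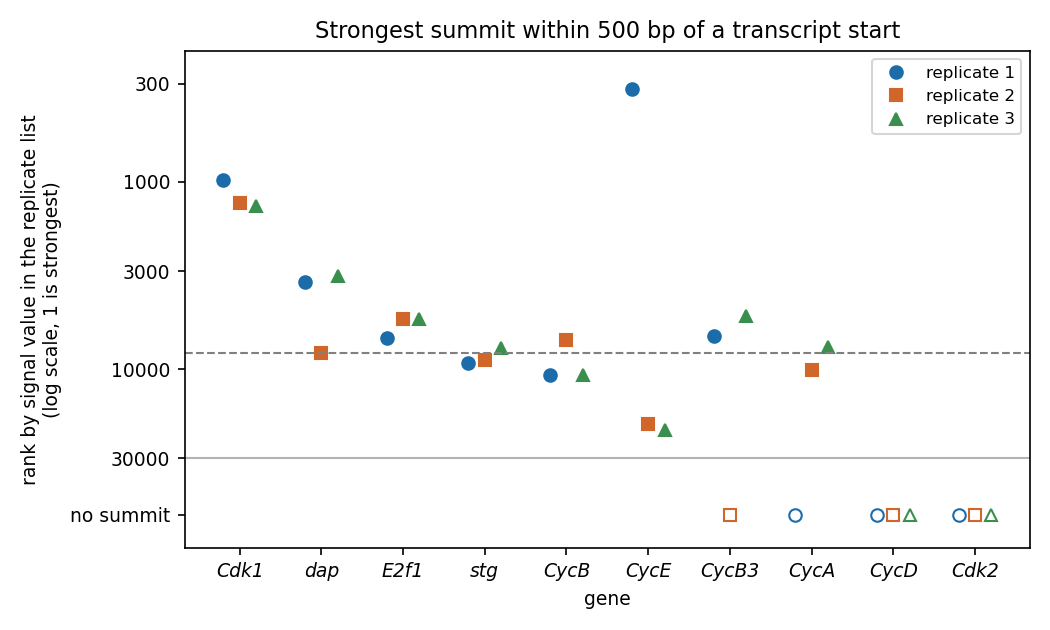
Each point is the rank, on a log axis with the strongest at the top, of a gene's strongest promoter summit in 1 replicate; open symbols mean that the replicate list has none. The dashed line is rank 8188 and the solid line rank 30000, the end of the list. Cdk1 lies between 979 and 1354 in all 3 replicates, while CycE spans 319 to 21036.

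Of the cyclins, CycE gave the strongest peak inside its gene. CycE (FBgn0010382, chr2L:15727581-15748150, minus strand, 3 annotated starts) encodes the partner of Cdk2 at the start of S phase. Its IDR summit at 15747131 lies in an intron, 521 bp upstream of the middle start at 15746610, and ranked 367 in the IDR list. In replicates 1, 2 and 3 this place ranked 319, 447 and 372, a mean of 379 ± 64.3 (SD, n = 3). The replicate summits stood at −474, −521 and −528 bp from that start (negative is upstream), so the edge of the 500 bp window ran between them. Only replicate 1 therefore counted it as a promoter summit, and replicates 2 and 3 held weak summits ranked 19631 and 21036, 285 and 302 bp downstream of the most upstream start. The gene's call thus changed with the window, although the strong place itself was found in every replicate. With a window of 1000 bp the mean rank of its strongest promoter summit was 379, against 13662 ± 11577 (SD, n = 3) at 500 bp. The summit window, 100 bp on either side of the summit, and the 250 bp upstream of the middle start are shown in the gene's 5′ to 3′ direction (RefSeq sequence, dm6), since the call turns on the distance between them. Capitals in the window (chr2L:15747031-15747231) mark the stretch between the outermost replicate summits, and capitals in the promoter (chr2L:15746611-15746860) mark matches to an E2F core. The promoter overlaps the exon of lncRNA:CR44974 on the other strand.
CycE summit window: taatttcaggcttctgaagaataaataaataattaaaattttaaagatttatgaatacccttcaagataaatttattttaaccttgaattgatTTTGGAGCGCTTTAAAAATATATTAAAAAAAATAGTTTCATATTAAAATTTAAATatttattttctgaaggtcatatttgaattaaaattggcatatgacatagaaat
CycE promoter: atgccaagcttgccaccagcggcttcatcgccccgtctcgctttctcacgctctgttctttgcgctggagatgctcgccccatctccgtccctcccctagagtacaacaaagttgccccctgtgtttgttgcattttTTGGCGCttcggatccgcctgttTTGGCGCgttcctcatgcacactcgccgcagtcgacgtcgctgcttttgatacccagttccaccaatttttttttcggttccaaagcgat

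CycA (FBgn0000404, chr3L:11826719-11833578, minus strand, 1 start) encodes the A-type mitotic cyclin. Replicate 1 had no promoter summit, replicate 2 had one 165 bp downstream of the start at rank 10095, and replicate 3 had one 38 bp upstream at rank 7586. The replicate summits were thus not at a common place, and the pooled list held a summit 46 bp upstream at rank 11627, below the IDR limit. The 2 IDR summits within 5 kb lay beyond the 3′ end of CycA, near the start of RpL10Ab, a ribosomal protein gene, and share a peak interval. The summit at 11822806, at −45 bp from RpL10Ab, ranked 4769, 6568 and 5412 in the replicates (5583 ± 912, SD, n = 3). The other, at 11822607, was the stronger in the IDR list (rank 4185 against 5140). It was matched within 100 bp in replicate 1 only, at rank 2643. The promoter of CycA (chr3L:11833579-11833828) is shown because it holds the letters TATCGATA, the DRE motif of the factor DREF, which is in capitals and begins 11 bp upstream of the start.
CycA promoter: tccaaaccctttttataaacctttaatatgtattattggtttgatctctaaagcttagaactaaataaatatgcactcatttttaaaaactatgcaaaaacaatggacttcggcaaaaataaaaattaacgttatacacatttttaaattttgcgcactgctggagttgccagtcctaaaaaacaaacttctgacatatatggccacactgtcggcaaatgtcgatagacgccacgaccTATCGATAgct

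CycB3 (FBgn0015625, chr3R:24867934-24870816, minus strand, 1 start) encodes a further mitotic cyclin. Its promoter summit ranked 6695 in replicate 1 and 5203 in replicate 3, 80 and 43 bp upstream of the start. Replicate 2 and the pooled list had none there. Its only IDR summit within 5 kb lay at −255 bp from Elal, also within 500 bp of a Srg1 start, and ranked 4134 in the IDR list. CycD (FBgn0010315, chrX:15906822-15909676, minus strand, 1 start), which encodes the partner of Cdk4, had no summit in its body or within 5 kb in any of the 5 lists, which was also the case for 13.7% of protein-coding genes. The nearest IDR summit was 19329 bp from the start of CycD, against a median of 5212 bp over protein-coding genes. Of protein-coding genes, 16.7% were farther from an IDR summit than CycD.

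The mitotic kinase gene Cdk1 had the strongest promoter summit of the 10 genes by mean rank. Cdk1 (FBgn0004106, chr2L:10384739-10386262, minus strand, 1 start) encodes the catalytic partner of the mitotic cyclins. Its summit ranked 979, 1307 and 1354 in replicates 1, 2 and 3 (1213 ± 204, SD, n = 3), at 212, 261 and 232 bp upstream of the start. The 3 summits stood within 49 bp of each other, and the IDR summit ranked 1143. The same summit lay at −173 bp from the divergent gene mRpS7, which encodes a mitochondrial ribosomal protein, so the peak cannot be given to either gene alone. Further along, the summit at CG5096 ranked 626, 432 and 381 in the replicates (480 ± 129, SD, n = 3). The start of da, which encodes a basic helix-loop-helix factor, held an IDR summit at rank 3156 that replicate 1 lacked. The window of the Cdk1 summit (chr2L:10386389-10386589) is shown with the stretch between the outermost replicate summits in capitals.
Cdk1 summit window: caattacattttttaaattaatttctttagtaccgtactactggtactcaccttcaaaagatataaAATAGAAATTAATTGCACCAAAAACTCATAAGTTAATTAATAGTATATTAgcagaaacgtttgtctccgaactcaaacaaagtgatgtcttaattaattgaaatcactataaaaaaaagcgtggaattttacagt

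**Figure D3:**
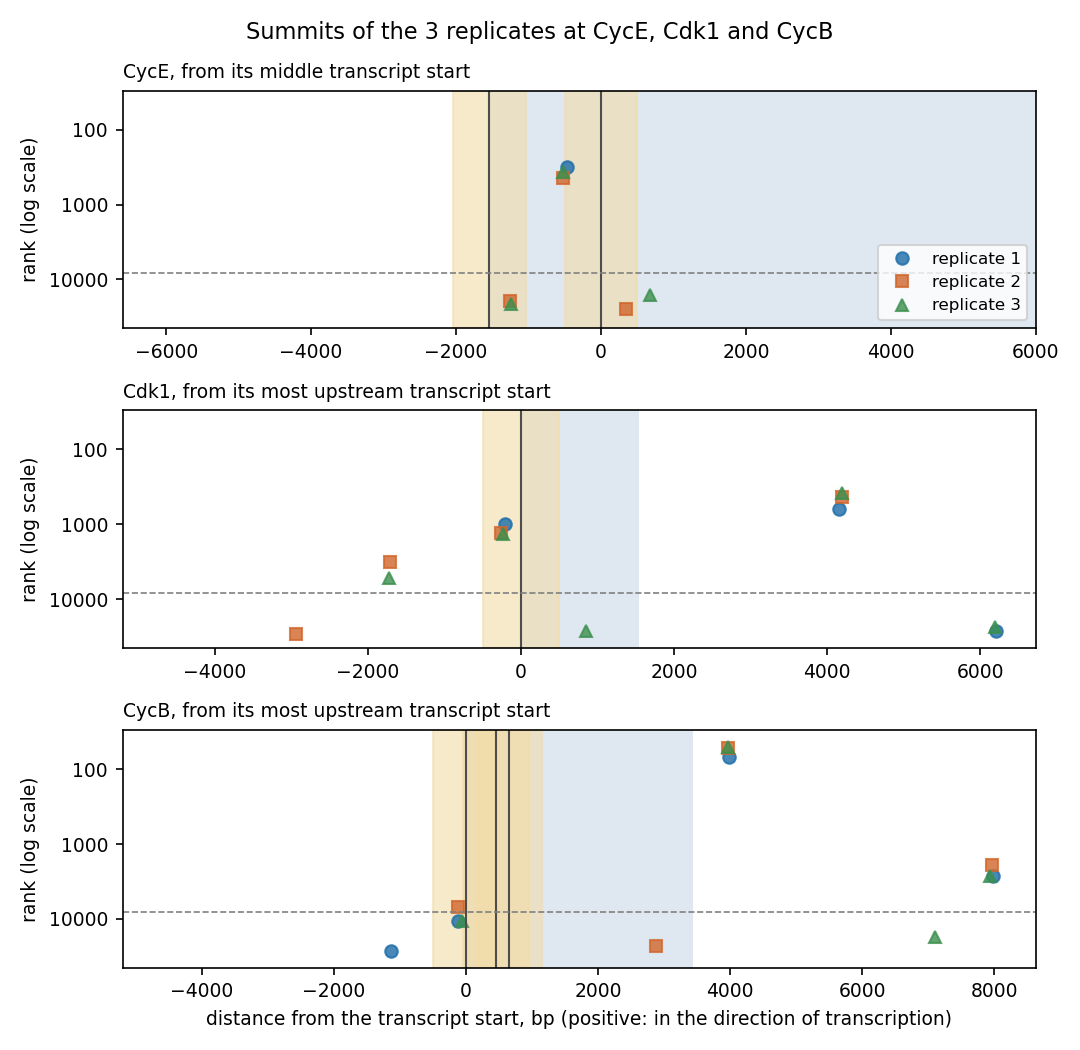
Each panel plots the summits of replicates 1 to 3 by distance from a transcript start in bp (positive in the direction of transcription) and by rank on a log axis, for CycE, Cdk1 and CycB. Blue shading is the gene body, yellow shading the 500 bp around each start, vertical lines the starts and the dashed line rank 8188. The strong CycE place, at ranks 319 to 447, straddles the edge of a yellow window, and the strongest CycB place, at ranks 50 to 69, lies past the end of the gene.

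Cdk2 (FBgn0004107, chr3R:20735623-20738414, plus strand, 1 start), the kinase partner of CycE, had no promoter summit in any list. Within 5 kb it had a summit in replicate 3 alone, at rank 24520, 4571 bp from its start and 86 bp downstream of the CG42322 start. A summit within 5 kb in 1 replicate only was found for 9.14% of protein-coding genes. The nearest IDR summit was 86409 bp away, and 1.44% of protein-coding genes were farther from one. In replicates 1, 2 and 3 the nearest summit was 16114, 86381 and 4571 bp away. The shares of protein-coding genes farther from a summit were 6.08%, 0.968% and 26.5%. The promoter of Cdk2 (chr3R:20735373-20735622) is shown because it too holds TATCGATA, in capitals, 61 bp upstream of the start, while having no summit.
Cdk2 promoter: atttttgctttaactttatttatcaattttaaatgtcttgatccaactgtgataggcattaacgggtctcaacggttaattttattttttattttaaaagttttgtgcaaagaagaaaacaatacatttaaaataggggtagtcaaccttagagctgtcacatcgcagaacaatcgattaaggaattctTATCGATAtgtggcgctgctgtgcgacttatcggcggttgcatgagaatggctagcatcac

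The phosphatase gene stg (FBgn0003525, chr3R:29251826-29255800, minus strand, 2 starts) encodes the Cdc25 enzyme that activates Cdk1. Its strongest promoter summits ranked 9329, 8906 and 7762 in replicates 1, 2 and 3 (8666 ± 811, SD, n = 3), around the limit of 8188. A place near the downstream start was found in all 3 replicates within 70 bp, at ranks 9329, 9199 and 7762, and the pooled summit there, 33 bp downstream, ranked 8271, just outside the IDR list. A further place, near the start of CG45544, ranked 9807, 8906 and 10179. It gave the replicate 2 rank of 8906, 474 bp upstream of the outer stg start, so the mean of 8666 mixes 2 places. The place near the downstream start alone had 8763 ± 870 (SD, n = 3). The 2 IDR summits within 5 kb were intergenic, at 29251669 (nearest start SP1029) and 29259657 (nearest start CG45544), with ranks 6199 and 7259. Replicate 2 had no summit within 100 bp of the one at 29251669. The promoter of stg upstream of its outer start (chr3R:29255801-29256050) holds E2F core letters at 2 places, in capitals.
stg promoter: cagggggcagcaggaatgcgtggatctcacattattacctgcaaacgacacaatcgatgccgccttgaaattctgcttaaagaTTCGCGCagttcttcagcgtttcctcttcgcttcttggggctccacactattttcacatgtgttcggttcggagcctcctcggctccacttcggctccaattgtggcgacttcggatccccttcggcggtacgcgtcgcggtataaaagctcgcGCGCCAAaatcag

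E2f1 (FBgn0011766, chr3R:21620304-21660871, minus strand, 5 starts, 40568 bp) encodes the activating E2F factor, which with Dp turns on S-phase genes, and it held most of the summits in the bodies of the 10 genes. The IDR list held 7 summits in its body, the pooled list 34 and replicates 1, 2 and 3 held 30, 32 and 32. Medians over the 356 other protein-coding genes of 30 to 50 kb were 1 in the IDR list, 8 in the pooled list and 9, 7 and 7 in the replicates. As many summits as E2f1 were found in 10.1% of those genes in the IDR list, 1.40% in the pooled list and 1.40%, 3.09% and 0.843% in the replicates. A long gene has more room for summits, and these comparison genes were picked by length alone. E2f1 held the most body summits of the 10 genes, so these shares describe an extreme member and are not a test. CycE held 1 IDR and 2 pooled body summits. As many were found in 57.0% and 65.4% of 549 other genes of 15 to 25 kb.

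The strongest place within E2f1, in an intron at 21627911, ranked 1802, 1461 and 1601 in the replicates (1621 ± 171, SD, n = 3), with summits within 13 bp of each other. The intronic place at 21656995 ranked 2136, 1975 and 2379 (2163 ± 203, SD, n = 3), and that at 21641704, nearest the start of lncRNA:CR46056, ranked 2800, 2279 and 2691 (2590 ± 275, SD, n = 3). The intronic place at 21651235, nearest the start of lncRNA:CR46057, ranked 3599, 6080 and 5949 (5209 ± 1396, SD, n = 3). None of these 4 lies within 500 bp of a transcript start, so the 4 strongest places in the E2f1 body by mean rank were not at its promoters. The promoter summit of E2f1, 272 bp upstream of the start at 21633073, ranked 6835, 5434 and 5434 (5901 ± 809, SD, n = 3). It was ahead of the place at 21651235 in replicates 2 and 3, and the means of these 2 places overlapped within their SDs. None of the other 4 starts had an IDR summit within 500 bp. The summits at 21656995 and 21657199 belong to a single peak interval. All 9 IDR places of E2f1, including those near InR, the insulin receptor gene, and Archease, had a summit in the full lists of all 3 replicates. This was the case for 89.6% of all IDR summits, and the IDR list was drawn from the same replicates. Of the 66 places found in any list in its body or within 5 kb, 18 in the pooled list had a summit in all 3 replicates and 22 were seen in 1 replicate and not in the pooled list. Windows of the same width are shown for the strongest intronic place (chr3R:21627811-21628011) and the promoter summit (chr3R:21633245-21633445), with capitals between the outermost replicate summits. The second overlaps an exon of asRNA:CR46055 on the other strand.
E2f1 intron window: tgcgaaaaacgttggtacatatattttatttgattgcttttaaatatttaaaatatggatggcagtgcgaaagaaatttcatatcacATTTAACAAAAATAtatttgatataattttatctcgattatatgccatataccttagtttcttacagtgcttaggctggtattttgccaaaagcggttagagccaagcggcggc
E2f1 promoter window: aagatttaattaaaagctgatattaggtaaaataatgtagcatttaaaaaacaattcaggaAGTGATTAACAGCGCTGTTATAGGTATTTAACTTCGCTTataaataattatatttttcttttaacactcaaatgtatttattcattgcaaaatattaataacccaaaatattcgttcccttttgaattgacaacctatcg

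**Figure D4:**
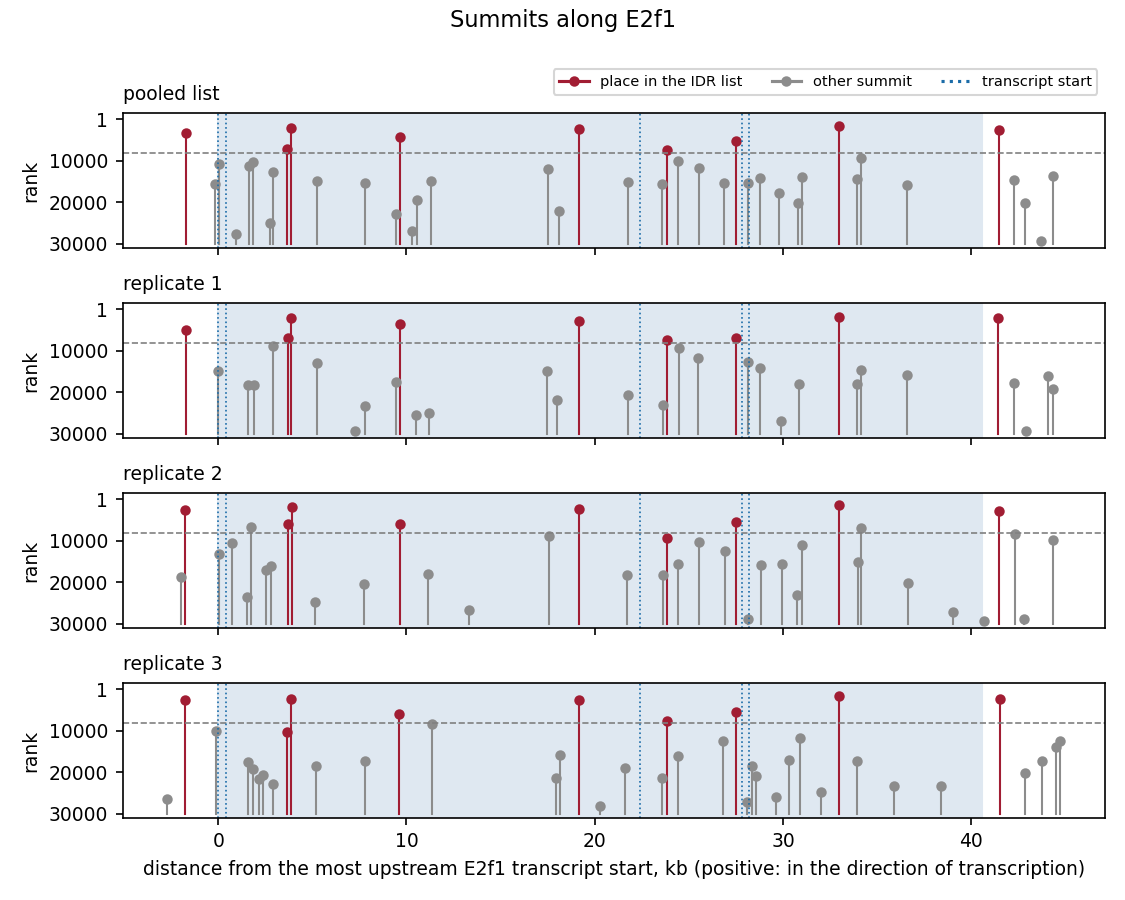
Summits along E2f1 in the pooled list and replicates 1 to 3, by distance in kb from the most upstream start (positive in the direction of transcription) and by rank, with the strongest at the top. Red summits are places in the IDR list, grey ones other summits, blue shading the gene, dotted lines its 5 starts and the dashed line rank 8188. The red places recur in all 3 replicates, with ranks from 1461 to 10400. They were drawn from the same replicates, so their recurrence is a description. Some grey places also recur in all 3 replicates, and others were seen in 1 replicate only.

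The 2 remaining genes lie on arm 2R. CycB (FBgn0000405, chr2R:22803521-22806948, minus strand, 3 starts) encodes the B-type mitotic cyclin. Its promoter summit ranked 10734, 7015 and 10755 in replicates 1, 2 and 3 (9501 ± 2153, SD, n = 3), at 126, 117 and 57 bp upstream, within 69 bp of each other. The pooled list held no summit there, and none within 500 bp of a CycE start. It did hold the strong CycE place, at rank 367 and 521 bp upstream of the middle start, just outside the window. A gene with a promoter summit in all 3 full lists and none in the pooled list was rare: it was the case for 2 of the 10 genes, against 0.995% (139) of protein-coding genes. For CycE the summits were at 2 places, 1 in replicate 1 and the other in replicates 2 and 3, whereas for CycB they were at a common one. CycE met this rule only because its strong place crossed the edge of the window.

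The strongest summit near any of the 10 genes lay past the end of CycB. It was at 22802971, 550 bp from the CycB end and 791 bp from the end of the convergent gene blw, an ATP synthase subunit gene, in a gap of 1340 bp. It ranked 55 in the IDR list and 69, 52 and 50 in the replicates (57.0 ± 10.4, SD, n = 3). No transcript start lies within 500 bp of it. Among the 100 strongest IDR summits, 35 were more than 500 bp from any start (35.0%), against 62.1% of all IDR summits. The summit at −127 bp from blw ranked 2353 in the IDR list.

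The inhibitor gene dap (FBgn0010316, chr2R:9712321-9716256, plus strand, 1 start) encodes a p21/p27-type protein that blocks CycE with Cdk2. It had 2 IDR promoter summits, at −418 bp (rank 4578) and −212 bp (rank 6665). Its strongest promoter summit ranked 3451, 8204 and 3188 in replicates 1, 2 and 3 (4948 ± 2823, SD, n = 3), so replicate 2 fell just outside the 8188 strongest peaks. The place at −212 bp was found in all 3 replicates with summits within 22 bp, and that at −418 bp in replicate 1 only, where it gave the rank of 3451.

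By mean rank over the replicates, Cdk1 stood ahead of dap and E2f1, then stg, CycB and CycE. The order holds for the 500 bp window: with 250 bp the E2f1 mean was 11975, behind stg (8763) and CycB (9501), and with 1000 bp CycE (379) was ahead of Cdk1 (1213). At 500 bp all 3 Cdk1 ranks were ahead of every rank of the other 5 genes except the CycE rank of 319 in replicate 1. The dap and E2f1 values overlapped within their SDs, as did those of stg and CycB and those of CycB and CycE. CycA, CycB3, CycD and Cdk2 have no mean, because at least 1 replicate had no promoter summit.

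In the gene bodies, the IDR list held summits in 2 of the 10 genes, CycE and E2f1, against 15.8% of protein-coding genes. There were 8 such summits, 7 of them in E2f1. Per kb of gene this was 0.0895 for the 10 genes, 0.0205 without E2f1 and 0.0532 for all protein-coding genes. The pooled list had body summits in 4 of the 10 genes (26.5% of protein-coding genes), and replicates 1, 2 and 3 in 3, 5 and 5 (28.1%, 29.8% and 32.8%). Within 5 kb, 8 of the 10 genes had an IDR summit, against 55.0% of protein-coding genes. The pooled list and replicates 1 and 2 also gave 8 (68.7%, 75.6% and 72.5%), and replicate 3 gave 9 (79.3%). CycD lacked one in all 5 lists, and Cdk2 in all but that of replicate 3. Of the 22 IDR summits within 5 kb, 14 (63.6%) were within 100 bp of a summit among the strongest peaks of all 3 replicates, against 67.3% of all IDR summits. With the full lists it was 18 (81.8%), against 89.6%.

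The number of genes called depended on the width given to the promoter. In the IDR list no core regulator gene had a summit within 200 bp of a start, whereas 2 did within 250 bp, 3 within 300 bp and 4 within 600 bp. The shares of protein-coding genes at these widths were 15.1%, 17.4%, 19.2% and 23.9%. At 600 bp CycE was added.

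**Figure D5:**
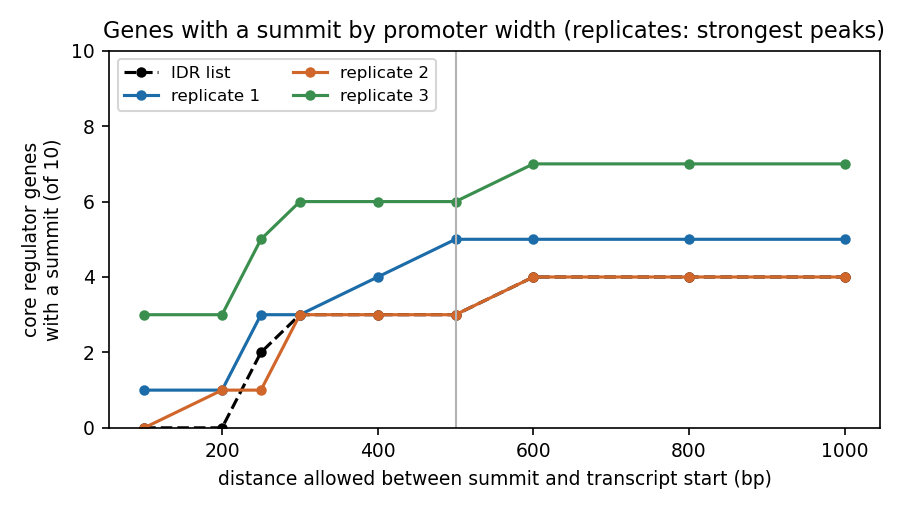
The number of the 10 genes with a summit, by the distance allowed between summit and transcript start in bp, for the IDR list and the strongest peaks of each replicate; the vertical line marks 500 bp. Replicate 3 rises to 7 genes and replicate 2 to 4, the replicate 2 line lying over the IDR line from 300 bp.

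Motifs were searched on both strands, and a match is a description of letters and not a binding site. In the windows of 100 bp on either side of the 11 IDR summits in or at the promoters of CycE, Cdk1, dap and E2f1, the DRE (TATCGATA) and the E2F core were found at none of the 4 genes. The E2F core was searched in 4 spellings: TTCCCGC, its variant TTCGCGC, the spelling TTGCCGC and the spelling TTGGCGC. The DRE and the E2F core were in 5.24% and 6.77% of the 2806 IDR promoter windows. The cell cycle homology region letters (TTTGAA, described in mammals) were in windows of all 4 genes, against 33.5% of promoter windows. A TATA core (TATAAA) was at 3 genes (40.4%), the BEAF core (CGATA, held by every DRE) at 2 (33.4%) and the GAGA core (GAGAG) at 1 (19.4%). The E-box (CACGTG) and the Zelda letters (CAGGTAG) were at none (1.89% and 0.570%). E2f1 has 7 of the 11 windows and so more chances of a match. Counted by window, the homology region letters were in 6 of the 11, against 34.4% of all IDR windows, and the TATA core in 4 (41.6%). The BEAF core was in 3 (23.5%) and the GAGA core in 1 (19.1%).

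In the promoters themselves, 250 bp before to 50 bp after a start, the E2F core was in 4 of the 10 genes (CycB, CycE, stg and E2f1), against 18.1% of protein-coding genes. The DRE was in CycA and Cdk2, against 10.2%. Neither DRE-bearing promoter had an IDR summit. Genes with several starts have more promoter letters, and this was not adjusted for. The other motifs were in 5 (the homology region, 46.1%), 6 (BEAF core, 53%), 6 (GAGA core, 36.2%) and 4 (TATA core, 51.2%) of the 10, and the E-box and Zelda letters in none (5.29% and 2.30%).

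A further 109 cell cycle genes, grouped by role, give the setting. Of these, 39 (35.8%, Wilson interval 27.4 to 45.1) had an IDR promoter summit, and 26 (23.9%, interval 16.8 to 32.7) had one among the strongest peaks of all 3 replicates. The shares of all protein-coding genes were 22.8%, below the first interval, and 17.9%, inside the other. The checkpoint genes had it most often, at 7 of 10 in the IDR list and 6 of 10 in all 3 replicates. The anaphase promoting complex had 6 of 12 and the kinases and phosphatases that act on Cdk1 6 of 10 in the IDR list. G1-S factors and ubiquitin ligases had 4 of 10. Replication origin and helicase genes had 5 of 21, other cyclins 2 of 7 and mitotic kinases, cohesin and separase 3 of 12. Other CDKs with CDK activators had 2 of 8, as did MuvB and dREAM genes, and DNA synthesis genes had 2 of 11. The IDR counts are to be read against 22.8% of protein-coding genes, and the checkpoint count in all 3 replicates against 17.9%. These role groups are small and have no interval here, so their order was not tested. The strongest by mean rank was mei-41, the ATR checkpoint kinase gene, at 327 ± 103 (SD, n = 3), with a TH1 start also within 500 bp. RnrS, a ribonucleotide reductase gene, followed at 556 ± 131, Cdc16 at 561 ± 130, Dp at 634 ± 124, Rbf2 at 738 ± 87.2 and Cdk12 at 1032 ± 49.1 (SD, n = 3 each). The checkpoint kinase gene grp was at 1436 ± 341 and mts, a phosphatase subunit gene, at 1585 ± 430 (SD, n = 3 each). Mcm2 and RPA1 share a summit (1755 ± 562, SD, n = 3), and tefu and aurA were at 2278 ± 737 and 2585 ± 482 (SD, n = 3 each). For each of these 12 genes the summit also lay within 500 bp of a start of another gene. Cdk1, at 1213 ± 204 (SD, n = 3), stood between Cdk12 and grp in this order, and its difference from each was within 1 SD of the more variable gene of the pair.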

How the data were processed

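ChIP-seq peak lists of 3 replicates of 1 group were analysed. The authors made each replicate list from its own alignments and a control common to all 3, the pooled list from the 3 alignments, and the IDR list from these 4, per the text files that come with them. All are on dm6, per the labels. Which aligner, caller and thresholds were used is not given in the sources used here. Ranks rest on the signal value as deposited, within each list. The authors' deposited −log10 q value has ties at its top and served as an alternative ranking. Summits are interval start plus offset, and 2 to 7 offsets per list past the interval end were set to its last base. Ensembl release 115 gave the genes and RefSeq the sequence, with chromosome lengths checked. Shares have 95% Wilson intervals, which cover counting error only. Scripts ran in Python 3.11.15 with pandas 2.3.3 and NumPy 2.4.6, and were tested on simulated data. The members and lists were chosen with earlier results of these data known, and no test was run on them. Genes were named by rule: the 10 members, genes with a start within 500 bp of a member's IDR promoter summit, the gene of the nearest start for each IDR summit within 5 kb, and up to 12 of the 109 other cell cycle genes, those of smallest mean rank with strong promoter summits in all 3 replicates. CG42322, genes sharing a summit with those 12 and non-coding genes overlapping a printed sequence were named after their values were seen. Alternatives were promoter width, list, list depth, nearest start only, interval overlap, match distance, motif window, ranking and leaving out each replicate. For the IDR list, leaving out a replicate meant keeping only the IDR peaks matched in both others.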

Additional observations from a re-analysis of the deposited data

How the results depend on the processing

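Read depth is unknown, and the replicate lists share a control that was not analysed here, so its part in their overlap was not tested. With 3 replicates and 10 genes, all counts have wide errors. No paired analysis was possible because there is 1 group. The number of genes with an IDR promoter summit, 3, was 1 with the 4094 strongest IDR peaks and 5 in the pooled list (chosen after seeing the data). No IDR list was made without a replicate. Instead, IDR peaks were kept if within 100 bp of a summit among the strongest peaks of both other replicates. This left 5984 to 6130 peaks, still ranked on the signal of all 3 replicates, and gave 2 to 3 genes. The number among the strongest peaks of all 3 replicates, 2, was 0 with a 250 bp window, 6 with the full lists, 1 with the 4094 strongest peaks of each replicate, 1 when a summit counted for its nearest coding start only, and 2 to 4 when a replicate was left out. The mean over replicates, 4.67, was 3.00 with a 250 bp window, 7.33 with the full lists, 2.00 with the 4094 strongest peaks and 4 to 5.50 when a replicate was left out. The 8 IDR summits in gene bodies became 22 with 5 kb on either side and 4 with the 4094 strongest IDR peaks. There was 1 without E2f1 (chosen after seeing the data), and 6 to 7 remained with the same matching of IDR peaks to both other replicates. With 200 bp on either side of a summit the E2F core was at 1 of 4 genes (17.5% of promoter windows), the BEAF core at 4 (54%), the GAGA core at 2 (43.1%) and the Zelda letters at 1 (1.82%). With 50 bp on either side the BEAF core was at 1 (16.6%) and the GAGA core at 0 (8.30%). Narrower windows, shorter lists and fewer genes leave fewer calls by construction. The share of protein-coding genes found in all 3 replicates is not given here for the 250 bp window or the 4094 strongest peaks. The 14 matched IDR summits ranged from 12 to 18 over all alternatives. Of the values of single genes' mean ranks under the alternatives, 7 moved by more than 1 SD and 26 did not. When ranked by −log10 q, where ties share the best rank, Cdk1, dap and E2f1 had 1.00.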

Other observations

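The DNA under some of these summits was poor in G and C. The window of 100 bp on either side of the CycE summit at 15747131 held 18.9% GC, and 0.535% of the 2806 IDR promoter windows held less. The dap summit at −418 bp from its start held 19.4% GC, with 0.677% of promoter windows lower, whereas the dap summit at −212 bp held 30.3%. The Cdk1 window held 26.4% and the E2f1 promoter window 24.9%, against a median of 33.3% over IDR promoter windows. The E2f1 summit at 21657199 was at 45.3%, so the 11 windows of the 4 genes span a wide range.

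The absence of a pooled summit at the CycB promoter can be set beside other places found in all 3 replicates. Of 7145 replicate 1 summits matched in both other replicates within 100 bp, with a worst rank of 12000 or better, 107 (1.5%) had no pooled summit within 100 bp. The worst CycB rank was 10755. Among the 1642 such summits with a worst rank from 8189 to 12000, 42 (2.56%) had none.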
